A study of Homo sapiens with 8 samples.

Results

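The messages of 10 regulators of the G1 and G2 phases of the cell cycle were followed into the Ago2-bound RNA of a Burkitt lymphoma (BL) cell line, in the absence and presence of ectopic miR-155. The members were the D cyclins CCND1, CCND2 and CCND3 with their kinases CDK4 and CDK6, the E cyclins CCNE1 and CCNE2, the inhibitors CDKN1A (p21) and CDKN1B (p27), and the kinase WEE1. Every non-control probe whose RefSeq identifier belonged to one of these genes was taken, which gave 18 probes among 41000. The 10 genes were among 16554 that the array identifiers named. Of the probes, 8 passed the filters on detection and on labelling, each for a different gene, among the 15529 probes that passed in all.

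Cell cycle entry is driven by cyclins, which switch on cyclin-dependent kinases. The D cyclins with CDK4 or CDK6 and then the E cyclins with CDK2 phosphorylate the retinoblastoma protein and open the way from G1 into S phase, p21 and p27 bind and restrain these kinases, and WEE1 holds cells in G2 by phosphorylating CDK1. Many of these messages are short-lived and carry sites for miRNAs, which Ago2 presents to their targets, so a message bound by a miRNA can be recovered with an antibody against Ago2.

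ST486 cells had received either the empty MXW-PGK-IRES-GFP retroviral vector (EV-ST486, called EV cells below) or the same vector with miR-155 (miR-155-ST486, called miR-155 cells below). The paper describes a sort of GFP-positive cells for checking the overexpression, and its array methods do not mention a sort. From the cells of each vector, RNA of the whole lysate (total, T) and RNA pulled down with the Ago2 antibody (IP) was labelled with either dye, Cy3 and Cy5, so that the IP RNA and the total RNA of each vector met on 4 Agilent arrays, in both dye orientations. The 2 labellings of one RNA are technical repeats, each condition has n = 1 in a single cell line, and no test between conditions can be made. The vectors lay on different slides, so vector and slide cannot be told apart. In these bulk samples, fewer cells that express a gene and less RNA per cell cannot be told apart either.

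Between 14094 and 22161 probes were detected per channel, with fewer in every Cy5 channel than in the Cy3 channel of the same RNA. The probe for MIR155HG, the host transcript of miR-155, was detected in both labellings of miR-155 total RNA and in neither of EV cells, a difference of at least 1.40-fold. Whether this probe reads the construct or the endogenous transcript is not given in the sources used here, and the arrays do not measure mature miR-155. Of 6 B-cell markers, 5 were detected in the total RNA of both vectors, the exception being PAX5, and so were the germinal centre and Burkitt markers MME, CD38, TCL1A and MYC. None of 4 T-cell markers was detected in both labellings of any sample. Among the markers of other cell types, KRT8 was detected in both labellings of every sample, and CD14 and KRT18 were so in miR-155 total RNA alone.

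A miRNA finds its targets mainly through its seed. The following mature human miRNAs are shown because earlier work, as background, ties each to members: miR-155 to WEE1, the miR-17 family to CDKN1A, the miR-15/16 family to D cyclins and CCNE1, let-7 to CDK6 and CCND2, and miR-221 with miR-222 to CDKN1B. Sequences are from RefSeq (GRCh38.p14), written 5′ to 3′, with the seed (bases 2 to 8) in capitals.
hsa-miR-155-5p: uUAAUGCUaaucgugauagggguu
hsa-miR-17-5p: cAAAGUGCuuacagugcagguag
hsa-miR-16-5p: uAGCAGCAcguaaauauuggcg
hsa-let-7a-5p: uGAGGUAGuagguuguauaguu
hsa-miR-221-3p: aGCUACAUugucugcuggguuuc
The 5 seeds differ from one another. The arrays do not measure these miRNAs, and which miRNA brought a message to Ago2 was not tested.

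Under the main processing, the E cyclins, both inhibitors and WEE1 were enriched in the IP fraction of both vectors, while CCND3, CDK4 and CDK6 were not. An IP/T ratio of at least 2, the threshold of the study for an Ago2-bound transcript, was reached by 5 of the 8 kept member probes, and by the same 5 in either vector. Among all kept probes 12.1% reached it in EV cells, 12.2% reached it with miR-155 and 10.2% in both. The 5 also reached a ratio of 2 in each of the 4 arrays taken alone, against 8.2% of all kept probes. CDKN1B and CCNE1 had a ratio of at least 8 in EV cells, as had 1.55% of all kept probes, and with miR-155 WEE1 joined them, where 1.46% of all kept probes reached it. The order of the 5 was CDKN1B, CCNE1, WEE1, CCNE2 and CDKN1A in EV cells, and CDKN1B, CCNE1, WEE1, CDKN1A and CCNE2 in miR-155 cells. The median IP/T ratio of the members was 5.24 in EV cells and 3.69 in miR-155 cells. The medians of all kept probes were 0.90 and 0.882. Those of the members lie midway between CDKN1A, at 3.78 and 3.87, and CCNE2, at 6.70 and 3.51. The total signal of CCNE2 was near background, and in every setting with normexp background correction its IP/T ratio was below 2 in both vectors. With normexp correction with an offset and quantile normalization, CDKN1A (1.39 and 1.495) and WEE1 (1.49 and 1.93) were below 2 as well. The median miR-155/EV ratio of the members was 1.104. No member had an IP/T ratio of 0.5 or less, a level found for 10% and 9.83% of all kept probes.

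**Figure D1:**
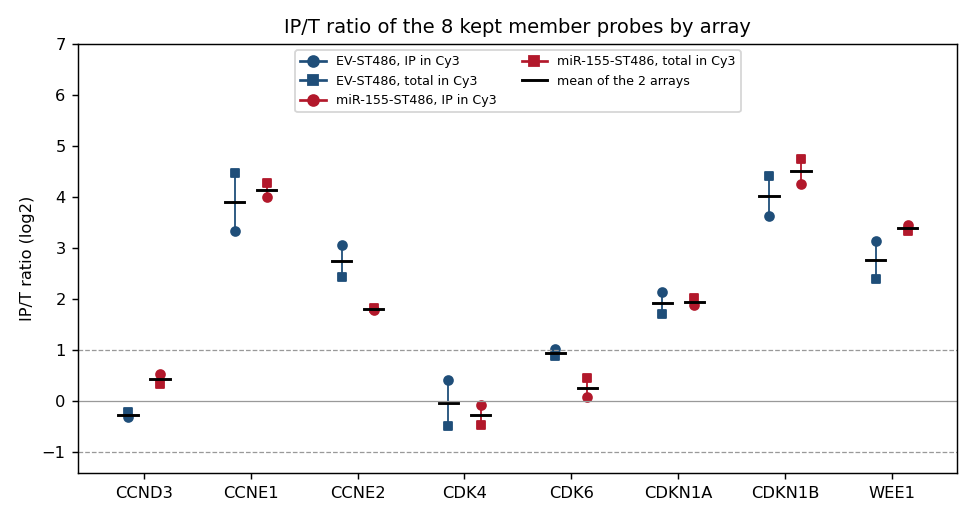
IP/T ratio (log2) of the 8 kept member probes in EV cells (blue) and miR-155 cells (red). Circles are the arrays with IP RNA in Cy3, squares those with total RNA in Cy3, and black bars their mean. CCNE1, CCNE2, CDKN1A, CDKN1B and WEE1 lie above a 2-fold ratio in every array.

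Of the D cyclins, which take up growth signals and activate CDK4 and CDK6, only CCND3 was detected in these cells. The 3 probes of CCND1 and the 3 of CCND2 were detected in 0 of 8 channels. Their normalized signals lay between 9.70 and 53.7 for CCND1 and between 9.62 and 34.5 for CCND2, and no ratio is given for either gene.

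The kept CCND3 probe (A_23_P361773) was detected in all 8 channels. Its normalized signals, Cy3 before Cy5 here and below, were 3399 and 4478 in EV total RNA, 3605 and 2943 in EV IP RNA, 2865 and 2476 in miR-155 total RNA, and 3580.0 and 3631 in miR-155 IP RNA. The miR-155 total sample was thus the lowest of the 4 and overlapped with no other, while the other 3 overlapped with their neighbours. The IP/T ratio was 0.835 in EV cells (0.805 and 0.866 in the arrays with IP and with total RNA in Cy3) and 1.35 in miR-155 cells (1.45 and 1.27), a miR-155/EV ratio of 1.62. This ratio was higher than that of 97.1% of all kept probes. In every array CCND3 lay below 1 in EV cells and above 1 with miR-155, as 3.23% of all kept probes lay on opposite sides. The vectors differed more in the total fraction, where the signal of miR-155 cells was 0.683 of that of EV cells, than in the IP fraction, where it was 1.11 of it. A second CCND3 probe (A_23_P214464) was removed because its labellings differed by up to 2.26-fold, and it went the other way, with IP/T ratios of 1.12 in EV cells and 0.853 in miR-155 cells.

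CDK4 and CDK6 are the catalytic partners of the D cyclins. The signals of CDK4 (A_23_P24997) were 11389.5 and 6319 in EV total RNA, 8442 and 8111 in EV IP RNA, 12027 and 9528 in miR-155 total RNA, and 9089.8 and 8701 in miR-155 IP RNA. The EV total labellings spanned those of both IP samples, and overlapped with those of the miR-155 total sample, which was above both IP samples. Its IP/T ratio was 0.975 in EV cells (1.34 and 0.712 in the 2 orientations) and 0.831 in miR-155 cells (0.954 and 0.723). The Ago2-bound and total CDK4 signals were thus within 2-fold of each other in every array.

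The signals of CDK6 (A_24_P166663) were 1191 and 846 in EV total RNA, 1724 and 2201 in EV IP RNA, 1338 and 1765 in miR-155 total RNA, and 1871 and 1832 in miR-155 IP RNA. EV total RNA was the lowest sample, miR-155 total RNA came next and overlapped with EV IP RNA, and the IP samples overlapped with each other. The IP/T ratio of 1.94 in EV cells (2.04 and 1.85) lay just under the threshold, and that of 1.20 in miR-155 cells (1.06 and 1.37) lay further below. The miR-155/EV ratio of 0.621 exceeded that of only 2.76% of all kept probes. Here too the vectors differed more in the total fraction, with 1.53-fold more in miR-155 cells, than in the IP fraction, where the ratio of miR-155 to EV cells was 0.950. The second CDK6 probe (A_23_P168651) was detected in 2 of 8 channels and was removed.

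CCNE1, the E cyclin that activates CDK2 at the G1/S transition, was among the most enriched transcripts of the whole array. The signals of its probe (A_23_P209200) were 10086 and 19887 in EV total RNA and 11608 and 14860.2 in miR-155 total RNA. In the IP fraction they were 201027 and 223238 in EV cells, and 238884 and 226396 in miR-155 cells. Both IP samples lay far above both total samples, while the total samples overlapped with each other and the IP samples did not. The IP/T ratio was 14.96 in EV cells (10.1 and 22.1 in the 2 orientations), exceeded by 74 of the 15529 kept probes, and 17.7 in miR-155 cells (16.1 and 19.5), exceeded by 42. The miR-155/EV ratio of 1.18 fell on either side of 1 in the orientations, at 1.59 and 0.881. The probe was just inside the labelling filter, as its EV total labellings differed by 1.97-fold, and it was not kept when quantile normalization was left out.

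For CCNE2, the second E cyclin, the IP/T ratio rested on a total signal near background. The signals (A_23_P215976) were 42.1 and 27.2 in EV total RNA, of which only the first was detected, and 62.4 and 83.1 in miR-155 total RNA. They were 226 and 228 in EV IP RNA and 289 and 221 in miR-155 IP RNA. The order was EV total, miR-155 total and then both IP samples, which overlapped with each other. Its IP/T ratio was 6.70 in EV cells (8.32 and 5.40) and 3.51 in miR-155 cells (3.48 and 3.53). CCNE2 was the single member whose total signal differed at least 2-fold between the vectors, with 2.13-fold more in miR-155 cells, a level reached by 0.676% of all kept probes. With normexp background correction, loess and Aquantile normalization, its IP/T ratios were 1.33 and 1.45 and the difference in the total fraction was 1.02-fold, so that neither call held and the miR-155/EV ratio turned from 0.523 to 1.09.

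**Figure D2:**
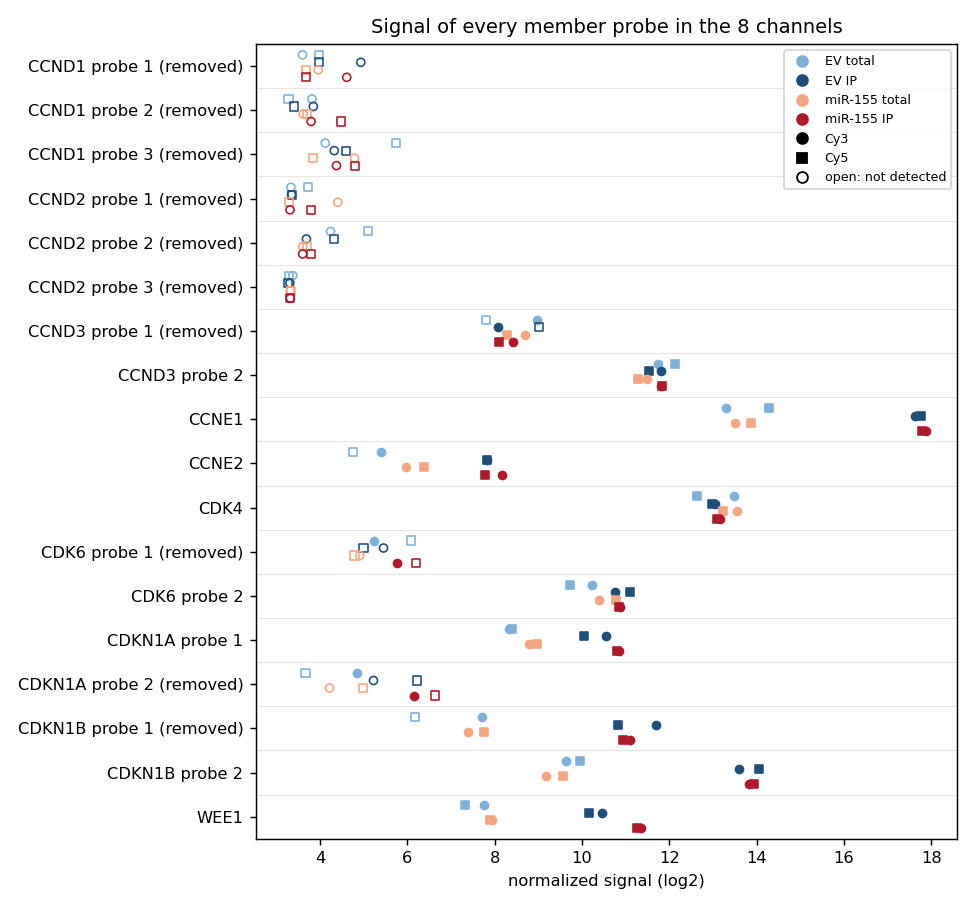
Normalized signal (log2) of all 18 member probes in the 8 channels. Colours give the sample, circles Cy3 and squares Cy5, and open symbols mark channels in which the probe was not detected. The IP samples of CCNE1, CDKN1A, CDKN1B and WEE1 lie to the right of both total samples, and all CCND1 and CCND2 symbols are open.

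CDKN1A encodes p21, the inhibitor that p53 switches on to stop cells in G1. Its kept probe (A_23_P59210) was printed in 10 spots on each array. The signals were 324 and 338 in EV total RNA, 442 and 499 in miR-155 total RNA, 1486 and 1053 in EV IP RNA, and 1852 and 1787 in miR-155 IP RNA. No sample overlapped with another, and miR-155 cells had the higher signal in both fractions, by 1.42-fold in total RNA and 1.45-fold in IP RNA. Its IP/T ratios in the vectors were accordingly alike, 3.78 in EV cells (4.39 and 3.26) and 3.87 in miR-155 cells (3.71 and 4.05). Over single spots, the ratio of processed IP to total signals ranged from 1.87 to 6.46 in EV cells and from 3.54 to 4.50 in miR-155 cells. A second CDKN1A probe (A_24_P89457) was detected in 2 of 8 channels and was removed. With normexp correction with an offset and quantile normalization, the ratios of the kept probe were 1.39 and 1.495, below the threshold. With high local backgrounds also replaced, they were above it, at log2 values of 1.22 and 1.40.

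CDKN1B encodes p27, the inhibitor that holds resting cells out of the cycle, and it had the highest IP/T ratio of the members in both vectors. Its kept probe (A_24_P81841), also printed in 10 spots, had signals of 794 and 998 in EV total RNA and of 581 and 758 in miR-155 total RNA. In the IP fraction the signals were 12356 and 17001 in EV cells, and 14548 and 15678 in miR-155 cells. The IP samples overlapped with each other and stood far above the total samples, of which that of miR-155 cells was the lower, at 0.745 of EV cells. Without quantile normalization the log2 value of this difference was 0.036, which lay below the median of all kept probes there, 0.44. Its IP/T ratio was 16.3 in EV cells (12.4 and 21.4), exceeded by 65 kept probes, and 22.8 in miR-155 cells (19.2 and 27.0), exceeded by 22. Over single spots with IP RNA in Cy3, the ratio ranged from 11.7 to 16.8 in EV cells and from 17.4 to 21.8 in miR-155 cells. Over those with total RNA in Cy3, it ranged from 20.3 to 24.1 and from 25.7 to 29.6. The spots of miR-155 cells were thus above those of EV cells in each orientation, and the spots of an array are technical.

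The other CDKN1B probe (A_23_P204696) was detected in 7 of 8 channels and was removed because its EV total labellings, 210.3 and 72.5, differed by 2.90-fold. It too was well above the threshold in every array, with IP/T ratios of 19.7 in EV cells (45.4 and 8.58) and 10.9 in miR-155 cells (10.1 and 11.8). Both CDKN1B probes thus showed p27 messages in the Ago2-bound RNA. The ratio of 45.4 rests on the EV total labelling in Cy5, in which the probe was not detected. Over both orientations the miR-155/EV ratio was 0.551 for this probe and 1.40 for the kept probe, in opposite directions. With IP RNA in Cy3 that of the removed probe was 0.222. With total RNA in Cy3 its ratio was 1.37, and that of the kept probe was 1.26. Under normexp correction with an offset and quantile normalization, the kept probe still passed the threshold, at 4.79 in EV cells and 5.51 in miR-155 cells.

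WEE1, which delays mitosis by phosphorylating CDK1, was the member with the largest difference between the vectors in the IP fraction. Its signals (A_23_P127926) were 216 and 159.6 in EV total RNA, 244 and 237 in miR-155 total RNA, 1416 and 1145 in EV IP RNA, and 2601 and 2458 in miR-155 IP RNA. The 4 samples followed each other in this order with no overlap, and the Ago2-bound WEE1 signal was 1.99-fold higher in miR-155 cells, a difference above that of 98.7% of all kept probes. In total RNA the signal of miR-155 cells was 1.30 of that of EV cells, and 0.849 of it with normexp correction, loess and Aquantile normalization. For WEE1 the IP/T ratio was 6.85 in EV cells (8.88 and 5.29) and 10.503 in miR-155 cells (11.0 and 10.1), a miR-155/EV ratio of 1.53 (1.23 and 1.90). WEE1 was thus enriched in the IP fraction of both vectors, and the ratio between them stayed below 2 in both orientations. The miR-155/EV ratio was 2.44 with normexp correction, loess and Aquantile normalization. With normexp correction with an offset and quantile normalization the IP/T ratios were 1.49 and 1.93, below the threshold. With high local backgrounds also replaced, they were above it, at log2 values of 1.58 and 2.28.

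No member met a 2-fold difference in IP/T ratio between the vectors under the main processing. Under alternatives, WEE1 passed it as given above, CCNE2 passed it at 0.418 in the orientation with IP RNA in Cy3, and the removed CDK6 probe, not well above background in 2 of the 4 samples, passed it without the filter on detection. The miR-155/EV ratios ran from 0.523 for CCNE2 to 1.62 for CCND3, with 5 above and 3 below 1 and a median of 1.104, against 0.983 for all kept probes. Ratios of 2 or more occurred at 1.15% of all kept probes and ratios of 0.5 or less at 0.477%. In total RNA the median miR-155 over EV ratio of the members was 1.28, against 1.01 for all kept probes, and in IP RNA it was 1.102 against 1.00. No member was lower by 2-fold in total RNA, as 0.38% of all kept probes were, and none differed by 2-fold in IP RNA, where 1.28% were higher and 1.05% lower. The labellings of the vectors did not overlap in total RNA for CCNE2, CDK6, CDKN1A and WEE1, which were higher in miR-155 cells, and for CCND3 and CDKN1B, which were lower, though the mean of WEE1 was lower in miR-155 cells under the other processing given above. Such separation was common, with 25.8% of all kept probes higher and 22.6% lower. In IP RNA, CCNE1, CDK4, CDKN1A and WEE1 were higher in miR-155 cells without overlap, as were 26.9% of all kept probes, and no member was lower, as were 25.6%.

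**Figure D3:**
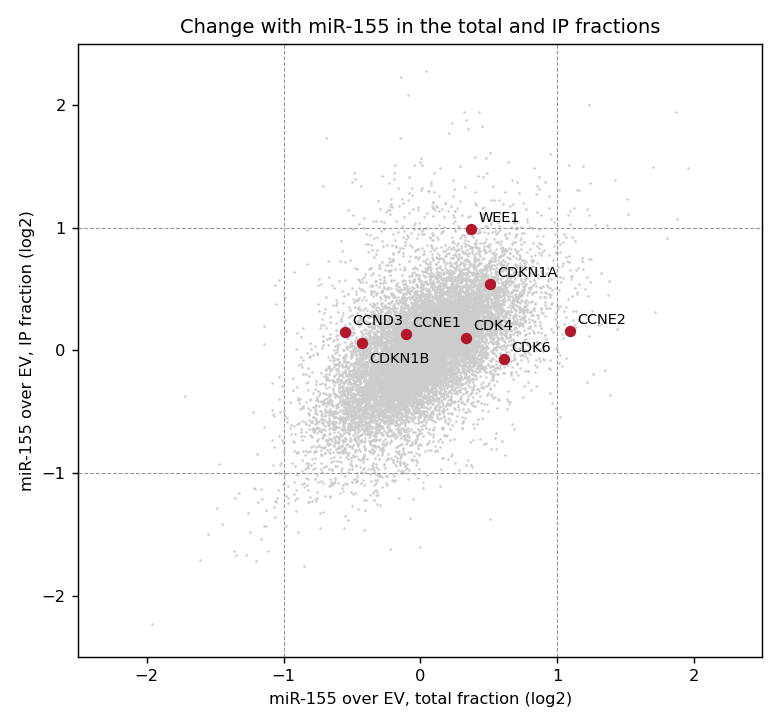
Ratio of miR-155 to EV signal (log2) in the total fraction (horizontal) and in the IP fraction (vertical). Grey points are kept probes, of which 3 fall outside the plotted range, red points are the members, and dashed lines mark 2-fold. WEE1 is the highest member in the IP fraction at 0.99 and CCNE2 lies furthest right in the total fraction at 1.09.

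As a wider frame, 40 other regulators of the cycle were examined, namely mitotic cyclins and kinases, CDC25 phosphatases, INK4 inhibitors, checkpoint kinases, ubiquitin ligase subunits and antiproliferative factors of the BTG and GADD45 families. Of these, 39 had a probe and 33 had a kept one, with 41 kept probes in all. An IP/T ratio of at least 2 was found for 10 of the 41 probes in EV cells and 11 in miR-155 cells, and 10 probes of 9 genes reached it in both. Among all kept probes the shares were 12.1%, 12.2% and 10.2%. The medians of the list were 1.05 and 0.966. The members' medians of 5.24 and 3.69 lay above these, but they rest in part on CCNE2. The members were also chosen with earlier results of these data known. With normexp correction with an offset and quantile normalization, the log2 medians of the members were 0.44 and 0.40. Medians of the list under that setting are not given here.

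The 3 genes of the list with the highest ratios were BTG2 and BTG3, antiproliferative factors, and FBXW7, the ubiquitin ligase subunit that marks cyclin E for destruction. BTG2 had signals of 1186 and 1266 in EV total RNA against 48742 and 58624 in the IP fraction, and its IP/T ratios were 43.6 in EV cells and 38.2 in miR-155 cells. The ratios of the kept FBXW7 probe were 9.32 and 9.35, and those of BTG3 were 6.98 and 6.07. At the other end lay a probe of CKS1B, a cofactor in p27 turnover, at 0.488 and 0.467, and CDC20, an activator of the anaphase-promoting complex, at 0.495 and 0.536. The other 2 CKS1B probes, at 0.849 to 1.02, did not share the low ratio. By the mean over both vectors, CDC25B, a phosphatase that opposes WEE1, followed at 0.585 and 0.658. A probe of FZR1, the other activator of that complex, was not well above background in EV IP RNA. It was detected in 1 of 2 labellings of EV total RNA. Its EV signals were 55.1 in total and 75.4 in IP RNA, but normexp, loess and Aquantile values put total at least 1.06-fold above IP. Its IP/T ratio of 0.544 in miR-155 cells therefore has no measured counterpart in EV cells. The other kept FZR1 probe stood at 0.650 and 0.609. No other probe of the list passed 2-fold between the vectors.

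**Figure D4:**
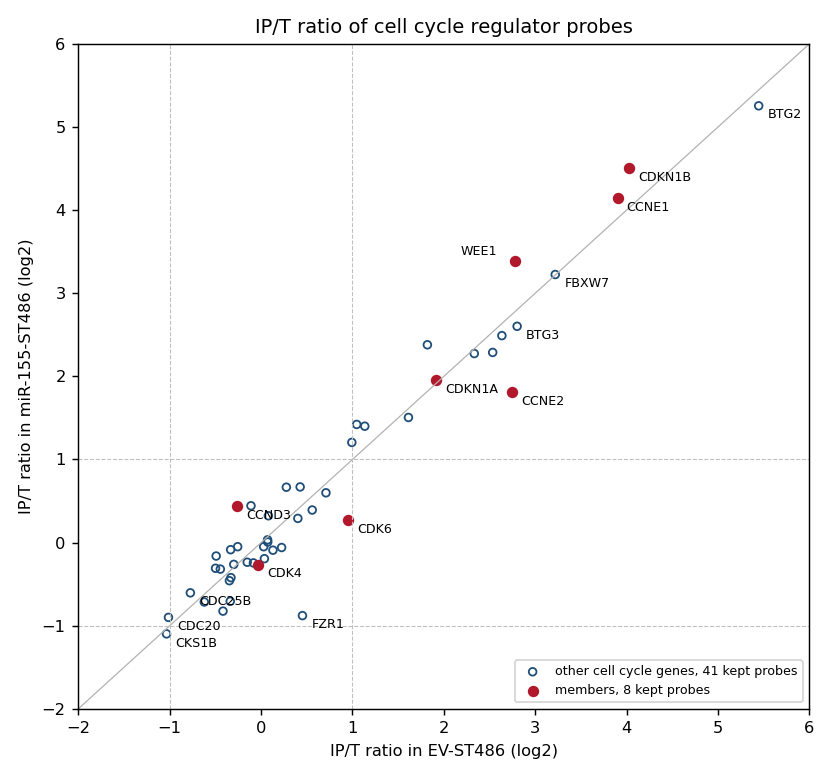
IP/T ratio (log2) in EV cells (horizontal) and miR-155 cells (vertical) for the 8 kept member probes (red) and the 41 kept probes of the other cell cycle genes (open blue). The line marks equal ratios and dashed lines mark 2-fold. BTG2, CDKN1B, CCNE1, WEE1 and FBXW7 form the upper end, most other probes lie near 0, and the EV value of the labelled FZR1 probe is not well above background.

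The likeness of 2 probes was taken as the Euclidean distance over their 4 log2 IP/T values, one per array, among these 49 probes. CCNE1 and CDKN1B, a cyclin and the inhibitor of its kinase, were nearest to each other, at 0.61. FBXW7 was nearest to WEE1, at 1.16. SKP2, the ligase subunit that targets p27, was nearest to CDKN1A, at 0.69, with IP/T ratios of 3.53 and 5.21. CDC25C, the phosphatase that removes the mark set by WEE1, was nearest to CCNE2, at 0.96. The members with a mean IP/T ratio below 2 had neighbours also below it, with CDK7 next to CCND3 at 0.35, GADD45B next to CDK4 at 0.44 and CKS2 next to CDK6 at 0.67.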

How the data were processed

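Total and Ago2-IP RNA of ST486 cells with either vector was hybridized to 4 two-colour Agilent arrays. The authors extracted intensity values with Agilent Feature Extraction 10.5.1.1, background-subtracted and dye-normalized per the file headers, and deposited log2 values quantile-normalized with GeneSpring. The microarray channel of each sample was taken by its dye label.

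Processed intensities of 43376 non-control spots were averaged per probe, floored at 1, put on the log2 scale and quantile-normalized over the 8 channels. A probe was kept if at least 4 channels had a spot that was positive, significant and well above background, and if no sample's labellings differed by more than 2-fold. Values at 14453 deposited probes lay within 0.05 of those made here in 99.9% of cases. Signals of the labellings were averaged on the log2 scale. IP/T divides IP by total signal, and miR-155/EV divides the IP/T of miR-155 cells by that of EV cells. With 1 RNA sample per condition no test was run, and precision is limited by the number of arrays. The lower bounds for MIR155HG and FZR1 used normexp (offset 50), loess and Aquantile values with the dimmest detected probe as the floor. Symbols came from RefSeq identifiers, which matched 23953 of 41000 probes, without coordinates. Named are all members, the 3 highest and 3 lowest of the other cell cycle genes, those at 2-fold between vectors, and each member's nearest probe, with SKP2 and further probes of named genes added. Members and lists were chosen with earlier results of these data known. Alternatives concerned background correction, normalization, filters, averaging, outlier or saturated spots, probe choice, thresholds and each dye orientation alone. The procedure was tested on simulated data. R 4.3.3, limma 3.58.1, Python 3.11.15, numpy 2.4.6, pandas 2.3.3 and matplotlib 3.10.9 were used.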

Additional observations from a re-analysis of the deposited data

Results flagged for a closer look

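Of the 49 kept probes compared above, 3 that were detected in every sample had IP/T ratios on opposite sides of 1 in the vectors. This held in every array, as it did for an FZR1 probe not well above background in EV IP RNA. Over all kept probes, without that condition on detection, the share was 3.23%, and the difference between the vectors was not tested. For CCND3 the log2 miR-155/EV ratio was 0.70, with an IP/T ratio of 0.835 in EV cells and 1.35 in miR-155 cells. In EV cells the CCND3 ratio came to 0.994 with normexp correction, loess and Aquantile normalization. For a probe of CDKN2A, the locus of the INK4 inhibitor p16, the log2 ratio was -0.22, and for the checkpoint kinase CHEK1 it was -0.28. The other kept CDKN2A probe lay below 1 in every array, with IP/T ratios of 0.787 in EV cells and 0.728 in miR-155 cells. The removed CCND3 probe went the other way, as given above.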

How the results depend on the processing

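Medians here are log2 values over the kept member probes, with the value as reported in parentheses. The kept member probes were 8 as reported, but their set changed with the setting. They were 10 with normexp and quantile normalization, 9 with high local backgrounds replaced, and 8 with loess and Aquantile as well. Without quantile normalization, or with detection in all 8 channels, they were 7. Normexp with an offset of 50 and quantile normalization gave 2 probes with IP/T of at least 2 in each vector in place of 5, a median IP/T of 0.44 in EV cells (2.33) and 0.40 in miR-155 cells (1.88), and a median miR-155 over EV of 0.068 in total RNA (0.35). With high local backgrounds replaced, the CDK4 probe was not kept, and 5 probes, without CCNE2, reached an IP/T of 2 in each vector. They were the reported probes of CCNE1, CDKN1A, CDKN1B and WEE1 and a probe that the main filters had removed. The IP/T medians were 1.22 and 1.40. With loess and Aquantile as well they were 0.96 and 1.07, the median miR-155/EV ratio was 0.37 (0.14), that in total RNA was 0.022, and 1 probe, WEE1, passed a miR-155/EV ratio of 2. Without quantile normalization the IP/T medians were 1.91 and 1.82, and those of miR-155 over EV were 0.78 in total and 0.58 in IP RNA (0.14), where the median of all kept probes shifted to 0.44 in both. Detection in all 8 channels gave 1.92, 1.95 and 0.24 for IP/T in each vector and miR-155/EV. No filter on detection gave 0.67, 0.48 and 0.24, with 0.030 in total RNA and 1 probe, of CDK6, past a miR-155/EV ratio of 2. No filter on dye differences gave a median miR-155/EV of -0.098. A ratio threshold of 1.5 gave 2 probes, CCND3 and WEE1, and with the vectors exchanged also 2, CCNE2 and CDK6. In the leave-one-out comparison of single orientations, the median miR-155/EV ratio ran from 0.030 to 0.17, and that of IP/T in EV cells from 2.05 to 2.60. Of 540 values of single genes under alternatives, 519 kept their direction, and the 21 others had a reported value under 2-fold. Of 149 past 2-fold as reported, 134 stayed past it. Some alternatives, such as detection in all 8 channels, changed only a filter and repeated the reported values of single genes. Agreement there was fixed in advance, and both counts include it.

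No paired analysis was possible because the shared numbers of the samples stand for the dyes of 1 RNA sample. Signal over background limits CCNE2 most, then WEE1 and CDKN1A, whose total signals were low.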
